A study of Mus musculus with 11 samples.

Results

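The transcription factor gene Myc and 38 genes of ribosome biogenesis were examined in activated mouse CD8+ T cells, the cytotoxic lymphocytes. The 39 genes were listed by name, with earlier results of these data known, and looked up among the 25562 gene symbols of the deposited expression table. All 39 passed the filter on low values in every comparison. RNA was measured in 11 libraries of such cells, purified from the spleens of inbred C57BL/6 mice. Every group had a pretreatment of 22 h and then 24 h of activation, by anti-CD3 at 1 µg/mL as the substitute for antigen and by anti-CD28 at 0.5 µg/mL for the costimulatory signal. The 4 AOAH libraries received 10 µg/mL recombinant human acyloxyacyl hydrolase, a lipase that removes fatty acyl chains from lipopolysaccharide and phospholipids, together with ethanol. The 3 PC libraries received 60 µM PC16:0-20:4, a phosphatidylcholine with a palmitoyl and an arachidonoyl chain, and a protein buffer with 10% glycerol. In the 4 vehicle libraries ethanol and that same buffer (10% glycerol) were given. Each group carries the batch numbers 1 to 4, except that PC has no batch 4, and PC was compared with vehicle 1 to 3.

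The labels differ on whether AOAH was given in the pretreatment or in the activation, on plate-bound antibody or beads, and on medium with or without interleukin-2. No glycerol share is given for the AOAH libraries, so an effect of the enzyme and one of its buffer cannot be told apart. Nothing in the labels says that libraries of a group came from separate animals or cultures, so p-values measure the spread between these libraries only, which may be technical. Values are in TPM, a length-corrected share of each library's transcripts, and the depth of each library is unknown. Each library held 11423 to 11739 genes at 1 TPM or more. Cd8a stood at 331 to 346 TPM with AOAH, 426 to 446 TPM with PC and 375 to 383 TPM with vehicle, and Cd4 stood at 0.11 to 0.42 TPM over all libraries. The summed level of 6 B cell markers was 7.15 to 9.44 TPM, 6.32 to 7.73 TPM and 8.06 to 10.3 TPM in these groups, with Ms4a1 at no more than 0.11 TPM. The summed level of 7 myeloid markers was 4.83 to 5.68 TPM with AOAH, 6.55 to 7.84 TPM with PC and 5.63 to 9.12 TPM with vehicle, with Csf1r at no more than 0.10 TPM. Lyz2, another of these markers, passed the filter on low values for AOAH against PC and was lower with AOAH. Over the 14 alternative settings in which Lyz2 was tested, its limma adjusted p ran from 0.0105 to 0.0528, and 3 lost the call.

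Ribosomes are built in the nucleolus, where RNA polymerase I transcribes ribosomal RNA and small nucleolar ribonucleoproteins (snoRNPs) guide its chemical modification, while assembly factors fold and cut it into the small and the large subunit. MYC pairs with MAX, binds E-box sequences and is known to raise transcription of ribosomal RNA and of many genes of this machinery. T cells induce MYC soon after activation, and the protein synthesis that follows is needed for their growth and division.

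E-box letters in the promoters of the members are shown because they are the sequence that MYC and MAX are known to bind. RefSeq windows of GRCm38.p6, from 250 bases before to 50 bases after the annotated start, were found for 33 of the 39 genes, while the deposited values were made on mm39. The palindrome CACGTG stood in windows of 7 of these 33 genes (21.2%), against 1055 of 8525 genes tested that had a window (12.4%) and 2349 of all 32851 windows (7.15%). Its variant CACGCG, searched on both strands as CACGCG and CGCGTG and counted separately, stood in windows of 11 of 33 members (33.3%), against 20.9% of the genes tested and 9.27% of all windows. Below are 30 bases on the strand of each of the 7 genes with the palindrome in capitals. The palindrome starts at position -60 in Nop2, 28 in Ltv1, 37 in Utp20, 2 in Pes1, 40 in Mybbp1a, 24 in Tsr1 and 17 in Wdr43, where 0 is the annotated first base. The stretches lie at chr6:125131811-125131840 (+), chr10:13193092-13193121 (-), chr10:88826765-88826794 (-), chr11:3963965-3963994 (+), chr11:72441347-72441376 (+), chr11:74898092-74898121 (+) and chr17:71616220-71616249 (+) in the order printed.
Nop2: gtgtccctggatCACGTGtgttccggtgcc
Ltv1: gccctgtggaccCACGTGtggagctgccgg
Utp20: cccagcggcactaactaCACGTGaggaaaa
Pes1: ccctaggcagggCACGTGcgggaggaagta
Mybbp1a: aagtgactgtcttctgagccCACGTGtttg
Tsr1: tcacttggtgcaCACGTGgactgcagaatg
Wdr43: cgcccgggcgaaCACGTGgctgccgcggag
In Nop2 the palindrome lies upstream of the annotated start, and the 250 bases before that start (chr6:125131633-125131882, + strand) are given for context.
Nop2 upstream: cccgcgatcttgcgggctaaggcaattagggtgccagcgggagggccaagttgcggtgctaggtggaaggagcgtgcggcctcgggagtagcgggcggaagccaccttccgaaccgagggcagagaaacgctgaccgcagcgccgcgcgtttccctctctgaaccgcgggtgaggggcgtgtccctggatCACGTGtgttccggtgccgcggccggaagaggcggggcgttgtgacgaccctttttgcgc

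All 39 genes were well expressed. Their mean level in vehicle ran from 39.9 TPM for Utp20 to 3750 TPM for Npm1, with a median of 168.7 TPM, and the coefficient of variation between the 4 vehicle libraries had a median of 3.24% (0.780% to 7.04%). Together they made up 1.42% to 1.47% of the TPM with AOAH, 1.22% to 1.23% with PC and 1.27% to 1.31% with vehicle. The summed level was 14404, 14437, 14128 and 14725 TPM in AOAH 1 to 4, 12282, 12262 and 12221 TPM in PC 1 to 3, and 13102, 12892, 12965 and 12732 TPM in vehicle 1 to 4. Every AOAH library lay above every vehicle library and every PC library lay below them all. Without Npm1 and Ncl, the most abundant members, the sums of the other 37 genes were 8574 to 8849 TPM with AOAH, 7510 to 7593 TPM with PC and 7756 to 7924 TPM with vehicle.

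**Figure D1:**
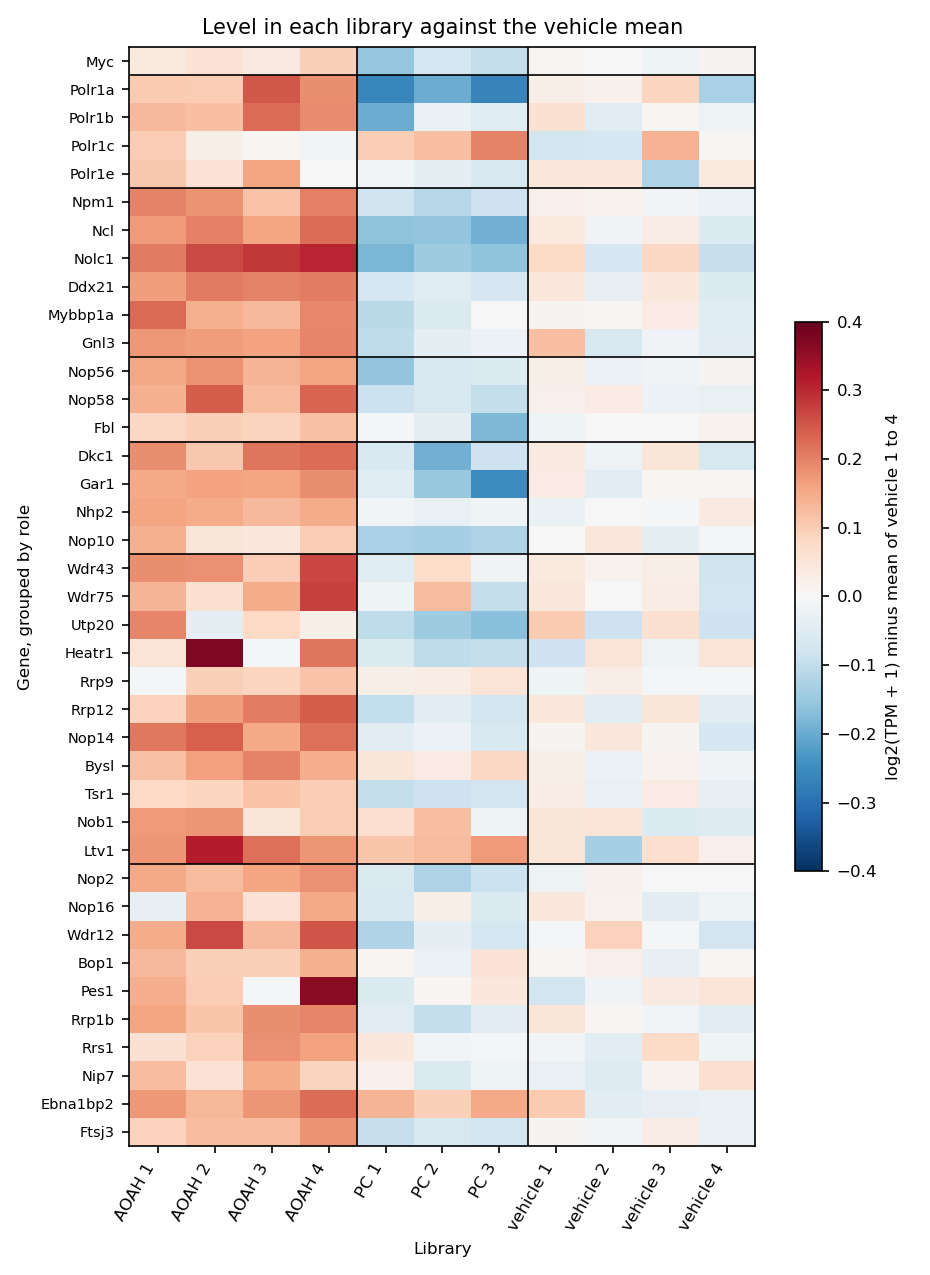
Level of each of the 39 genes (rows, grouped by role) in each library (columns), as log2(TPM + 1) minus the gene's mean over vehicle 1 to 4; red is above and blue below that mean. The AOAH columns are mostly red and the PC columns mostly blue, while Polr1c, Rrp9, Bysl, Ltv1 and Ebna1bp2 lie above the vehicle mean in all 3 PC libraries.

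With AOAH, most of the ribosome biogenesis genes rose by a small amount. In the limma test at a Benjamini-Hochberg adjusted p under 0.05 over all 11561 genes, 28 of the 39 genes rose and 0 fell, where 13.1% of all genes tested rose and 12.1% fell (25.2% in either direction). The genes not past the threshold were Myc, Polr1a, Polr1c, Polr1e, Nop10, Utp20, Heatr1, Rrp9, Nob1, Nop16 and Pes1. The log2 change was above 0 for all 39, with a median of 0.16 (0.03 to 0.26) against a median of 0.01 over all genes tested. As a change of the mean TPM, the median was 11.7% and the range 1.97% to 20.1%. All AOAH libraries lay above all vehicle libraries for 28 genes, where 15.1% of all genes showed this, and no gene showed the opposite, where 13.7% of all genes did. In 35 of the 39 genes AOAH was higher in each of the 4 same-batch pairs. The 28 genes without overlap are among these by definition, and the share over all genes was not computed. In bulk RNA, a larger number of cells with active ribosome synthesis and more such RNA per cell cannot be told apart. The unadjusted test had 4358 genes at p under 0.05. When TPM was rescaled without mitochondrial, receptor segment, histone and ribosomal protein genes, 1167 genes rose and 1683 fell over the whole table, against 1514 and 1399 on the deposited scale, and 24 of the 39 genes still rose.

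**Figure D2:**
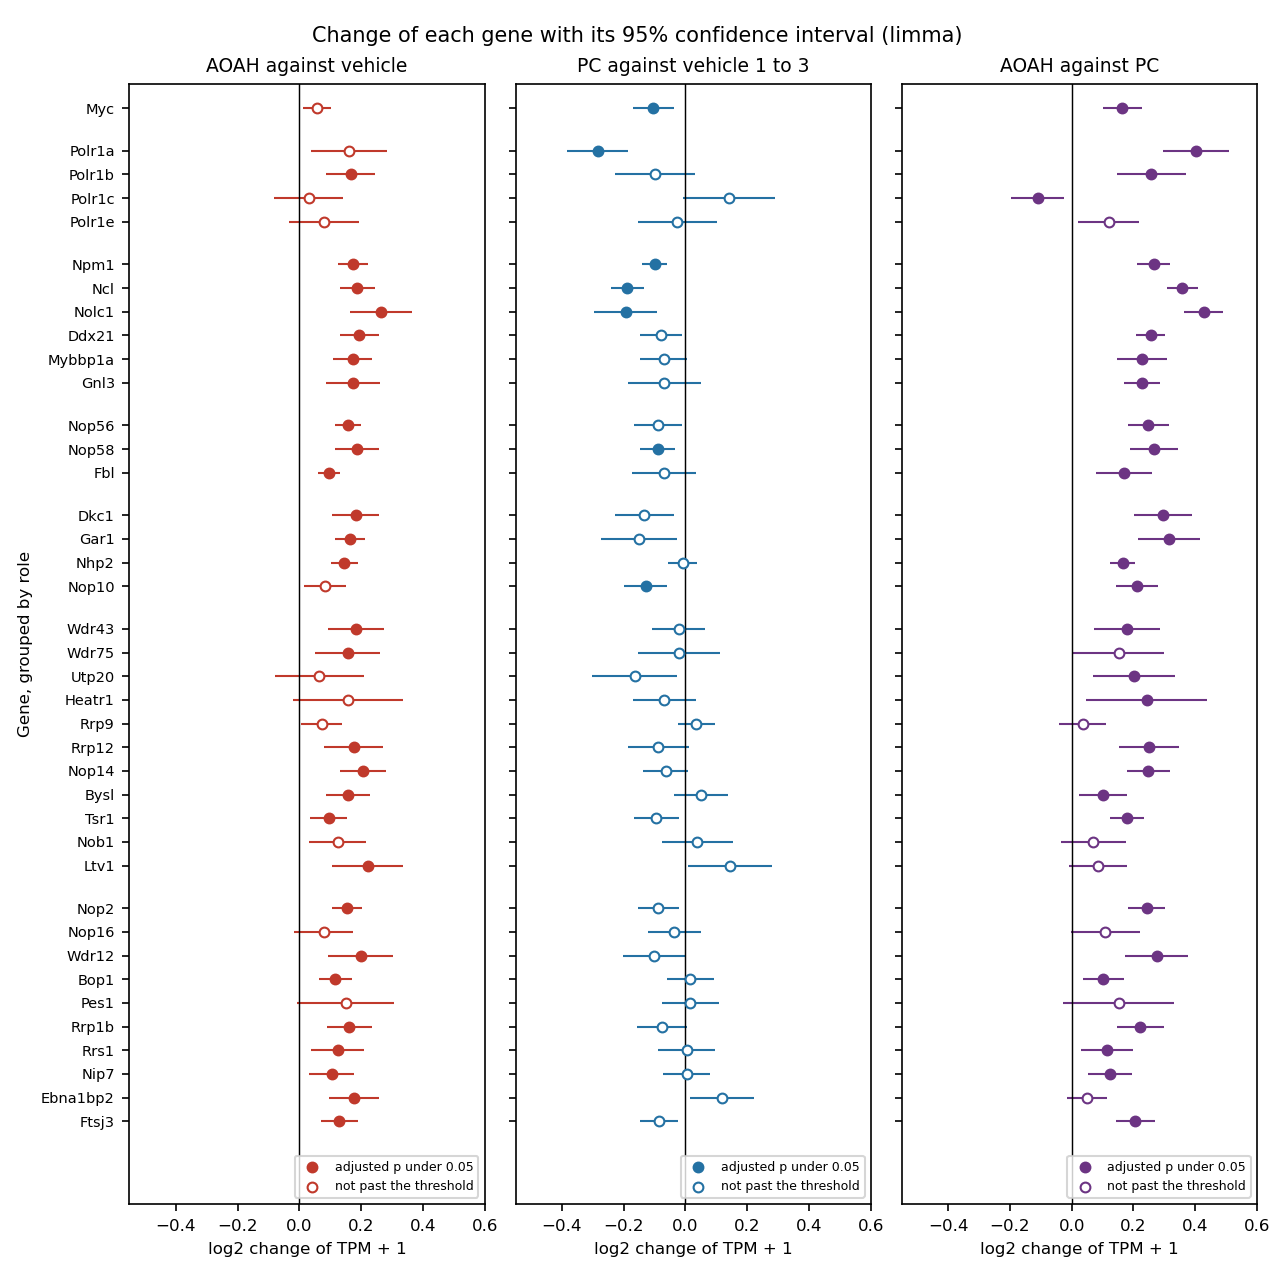
Change of each gene on the log2(TPM + 1) scale (points) with its unadjusted 95% confidence interval (bars), for AOAH against vehicle, PC against vehicle 1 to 3 and AOAH against PC; filled points passed an adjusted p of 0.05. With AOAH all 39 points lie right of 0, with PC 7 filled points lie left of 0, and AOAH against PC has 30 filled points on the right and 1 on the left, Polr1c.

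Fewer of these genes passed the threshold with PC than with AOAH, which does not show that the others did not differ. Compared with vehicle 1 to 3, 7 of 39 genes fell and 0 rose, where 11.2% of all 11628 genes tested fell and 8.27% rose (19.5% in either direction). The unadjusted test had 3909 genes at p under 0.05. The genes that fell were Myc, Polr1a, Ncl, Npm1, Nolc1, Nop58 and Nop10. The median log2 change was -0.07 (-0.28 to 0.14) against -0.01 over all genes tested, and the median change of the mean TPM was -4.78% (-18.3% to 10.4%). The log2 change was above 0 for 10 of the 39 genes. All PC libraries lay below vehicle 1 to 3 for 20 genes, where 21.4% of all genes did, and above them for 2, Bysl and Ltv1, where 17.9% of all genes did. With batch as a block the count that fell was 4 (Polr1a, Ncl, Npm1 and Dkc1). Leaving out 1 library changed it to 4 without PC 1 or PC 2, 3 without PC 3 or vehicle 1, 8 without vehicle 2 and 5 without vehicle 3. Ebna1bp2 passed the threshold as higher without vehicle 1 (adjusted p = 0.0238) and Polr1c without vehicle 3 (adjusted p = 0.0288). Ncl and Polr1a kept their calls under all 17 alternatives.

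AOAH and PC libraries were also compared directly, a test that uses no vehicle library. With AOAH, 30 of the 39 genes were higher and 1 was lower, where 24.3% of all 11596 genes tested were higher and 21.5% lower (45.8% in either direction). The median log2 change was 0.21 against 0.00 over all genes tested. All AOAH libraries lay above all PC libraries for 32 genes, where 26.8% of all genes showed this, and no gene showed the opposite, where 23.9% did. Calls of 22 of the 31 genes held under all 17 alternatives. Under quantile normalization the calls of Fbl (adjusted p = 0.373), Nip7 (0.0924), Wdr43, Heatr1, Bysl, Bop1 and Rrs1 were lost. TMM rescaling ended those of Heatr1 and Polr1c. Rescaling without mitochondrial, receptor segment, histone and ribosomal protein genes ended those of Nip7 (0.0559), Utp20, Heatr1, Bysl, Bop1 and Rrs1. With batch as a block, the calls of Bop1 (adjusted p = 0.0811), Bysl (0.0923), Heatr1 (0.107), Rrs1 (0.119) and Polr1c (0.160) were lost. Leaving out 1 library ended the calls of Bop1 (without AOAH 4, PC 1 or PC 2, 0.0509 to 0.0732), Bysl (without any library but AOAH 1, 0.0583 to 0.120), Heatr1 (without any library but AOAH 1 or AOAH 3, 0.0532 to 0.115), Rrs1 (without AOAH 3, AOAH 4, PC 2 or PC 3, 0.0683 to 0.0960), Utp20 (without PC 2 or PC 3, 0.0599 and 0.0709), Wdr43 (without PC 1, 0.0508) and Polr1c (without any library but AOAH 1 or PC 1, 0.0757 to 0.148). Calls were gained by Nop16 without AOAH 1 (0.0197), Pes1 without AOAH 3 (0.0499), Polr1e without AOAH 4 (0.0235) and Wdr75 without PC 2 (0.0277).

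**Figure D3:**
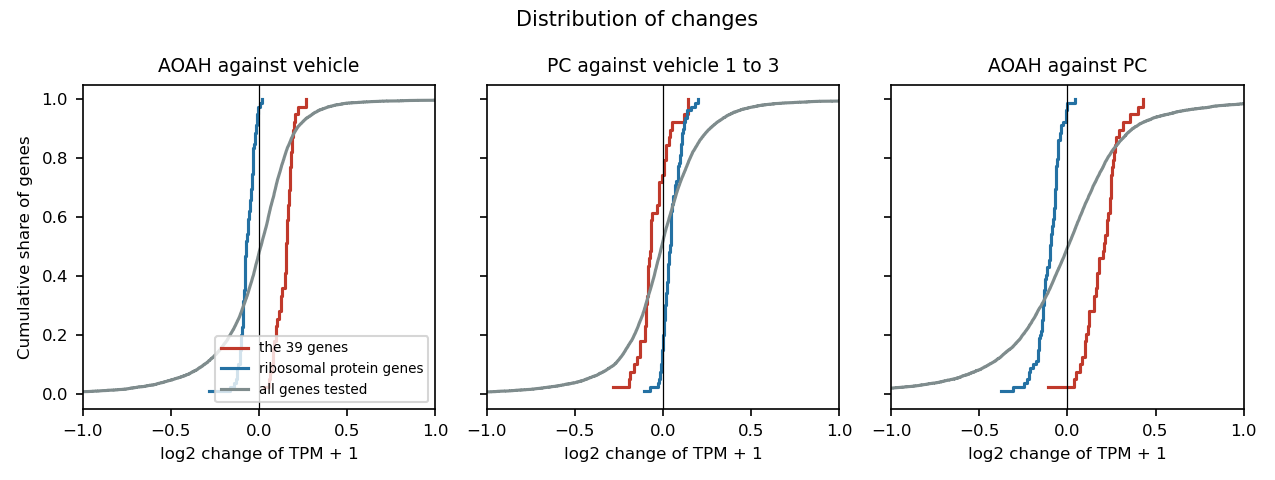
Cumulative share of genes (vertical axis, 0 to 1) by their change on the log2(TPM + 1) scale (horizontal axis, shown from -1 to 1) for the 39 genes, 79 ribosomal protein genes and all genes tested, in the 3 comparisons. With AOAH against vehicle the curve of the 39 genes crosses 0.5 at 0.16, that of all genes near 0.01 and that of the ribosomal protein genes at -0.07.

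Myc itself moved little. It had 352, 358, 352 and 366 TPM in AOAH 1 to 4, against 344, 344, 339 and 346 TPM in vehicle 1 to 4. All 4 AOAH libraries lay above all vehicle libraries, and the log2 change of 0.06 ± 0.02 (SE, limma adjusted p = 0.0688) did not pass the threshold. In PC 1 to 3 Myc had 308, 327 and 321 TPM, each below every vehicle library, and against vehicle 1 to 3 it fell by 0.10 on the log2 scale (SE 0.03, limma adjusted p = 0.0435). That call was lost under 10 of 17 alternatives, with an adjusted p of 0.0786 with batch as a block. It was lost without PC 1, PC 3, vehicle 1, vehicle 2 or vehicle 3 (adjusted p 0.0879 to 0.120). Directly compared, Myc was higher with AOAH than with PC (log2 change 0.16 ± 0.03, SE, limma adjusted p = 0.00193), a call kept under all alternatives. The authors' deposited table gives Myc a log2 fold change of 0.05 for AOAH (adjusted p = 0.361) and -0.09 for PC (adjusted p = 0.222).

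Among 13 partners and antagonists of MYC, 11 could be tested. With AOAH 0 rose and 1 fell, where 13.1% of all genes tested rose and 12.1% fell. With PC 1 rose and 2 fell, where 8.27% of all genes tested rose and 11.2% fell. Mxd4, which pairs with MAX and represses MYC targets, had 2.79, 2.54, 2.85 and 3.33 TPM in AOAH 1 to 4, 8.33, 9.72 and 9.32 TPM in PC 1 to 3, and 4.24, 5.76, 5.34 and 5.57 TPM in vehicle 1 to 4. The 3 groups did not overlap. Its log2 change was -0.68 ± 0.10 with AOAH against vehicle (SE, limma adjusted p = 0.00171) and 0.73 ± 0.11 with PC against vehicle 1 to 3 (SE, limma adjusted p = 0.00613), and both calls held in the 17 alternatives in which Mxd4 was tested. Mxi1, another MAX partner, fell with PC (log2 change -0.36 ± 0.06, SE, limma adjusted p = 0.00993). Mxd3 of the same family also fell with PC (log2 change -0.73 ± 0.16, SE, limma adjusted p = 0.0206), a call lost without PC 1, PC 2, vehicle 1 or vehicle 3, with adjusted p up to 0.0664 under the alternatives. Max passed no threshold, at 184 to 215 TPM with AOAH, 161 to 197 TPM with PC and 185 to 228 TPM with vehicle. Mycn and Mycl were below the filter.

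**Figure D4:**
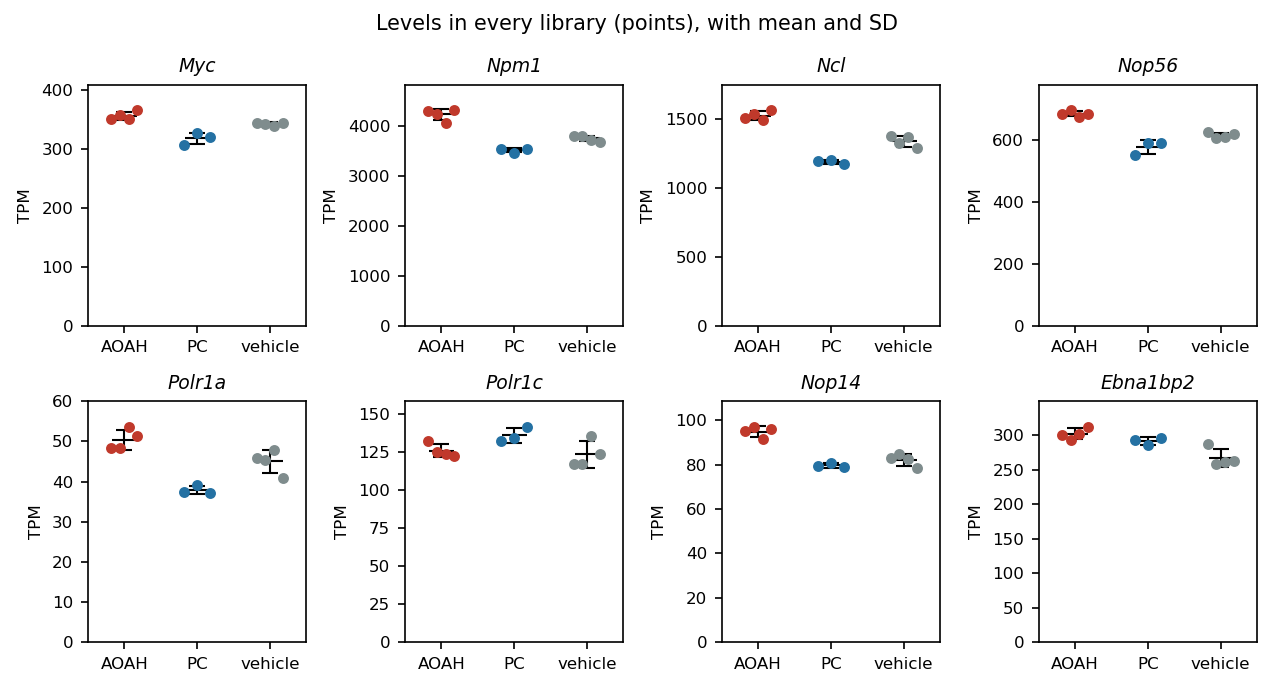
TPM of 8 members in every library (points, from 0), with the mean and SD of each group (horizontal bars), for AOAH (n = 4), PC (n = 3) and vehicle (n = 4). Myc, Npm1, Ncl, Nop56, Polr1a and Nop14 are highest in all AOAH libraries. Myc, Npm1, Ncl, Nop56 and Polr1a are lowest in all PC libraries, and vehicle 1 of Ebna1bp2 stands apart at 287 TPM.

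Of the RNA polymerase I subunits, 1 of 4 rose with AOAH and 1 of 4 fell with PC. Over all genes tested, 13.1% rose with AOAH and 11.2% fell with PC. Polr1b, part of the catalytic core, had 91.5, 91.0, 97.7 and 95.5 TPM in AOAH 1 to 4, against 87.2, 81.1, 83.8 and 82.3 TPM in vehicle 1 to 4, and rose by 0.17 ± 0.04 on the log2 scale (SE, limma adjusted p = 0.00880). PC libraries had 72.7, 81.9 and 80.7 TPM of Polr1b, overlapping vehicle 1 to 3 (log2 change -0.10 ± 0.05, SE, limma adjusted p = 0.254). Polr1a, the largest subunit, had 37.4, 39.04 and 37.2 TPM in PC 1 to 3, against 45.8, 45.5 and 47.7 TPM in vehicle 1 to 3. Its fall of -0.28 ± 0.04 (SE, limma adjusted p = 0.00477) was the largest among the 39 genes in that comparison and was also called in the authors' deposited table (-0.28, adjusted p = 6.56e-05). In AOAH 1 to 4 Polr1a had 48.4, 48.3, 53.6 and 51.3 TPM, and in vehicle 4 it had 41.0 TPM. AOAH did not overlap the 41.0 to 47.7 TPM of vehicle 1 to 4, and the change of Polr1a was 0.16 ± 0.05 (log2, SE, limma adjusted p = 0.0597). It passed the threshold without vehicle 3 (adjusted p = 0.0448), and the authors' deposited table calls it (0.16, adjusted p = 0.0108). Polr1c, which RNA polymerase III shares, ran differently: it had 132, 125, 124 and 122 TPM in AOAH 1 to 4, 132, 134 and 141 TPM in PC 1 to 3, and 117, 117, 136 and 123 TPM in vehicle 1 to 4, with overlap among all groups. Neither treatment moved it past the threshold against vehicle, and it was lower with AOAH than with PC (log2 change -0.11 ± 0.04, SE, limma adjusted p = 0.0426), a call lost under 9 of 17 alternatives. Polr1e stood at 56.6 to 63.3 TPM with AOAH, 54.1 to 56.1 TPM with PC and 51.9 to 58.3 TPM with vehicle. Of 17 further genes of this machinery, 2 rose and 0 fell with AOAH, where 13.1% of all genes tested rose and 12.1% fell. With PC 0 of the 17 rose and 2 fell, where 8.27% of all genes tested rose and 11.2% fell. Tcof1, a nucleolar cofactor of ribosomal RNA transcription, had 107 to 114 TPM with AOAH, 89.8 to 90.4 TPM with PC and 96.0 to 106 TPM with vehicle. It rose with AOAH (log2 change 0.16 ± 0.04, SE, limma adjusted p = 0.0143), a call that held, and fell with PC (-0.16 ± 0.04, adjusted p = 0.0287), a call lost under 7 of 17 alternatives, among them leaving out PC 1, PC 2, PC 3, vehicle 1 or vehicle 3 (0.0706 to 0.0836) and batch as a block (0.0591). The other gene that rose with AOAH was Polr2l and the other that fell with PC was Polr2f, subunits shared with other polymerases. The count that rose with AOAH was 1 without any 1 of the libraries except vehicle 4, and the count that fell with PC was 0 without PC 1, PC 2, vehicle 1 or vehicle 3, 1 without PC 3, and 0 with batch as a block.

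Among the abundant nucleolar proteins, 6 of 6 rose with AOAH and 3 of 6 fell with PC. Over all genes tested, 13.1% rose with AOAH and 11.2% fell with PC. Npm1, a chaperone that shuttles ribosomal components, had 4298, 4248, 4060 and 4312 TPM in AOAH 1 to 4, against 3802, 3789, 3722 and 3688 TPM in vehicle 1 to 4. The groups did not overlap, and the log2 change was 0.17 ± 0.02 (SE, limma adjusted p = 0.000659). In PC 1 to 3 Npm1 had 3548, 3468 and 3539 TPM, below every vehicle library (-0.10 ± 0.02, SE, limma adjusted p = 0.00942), a call lost under TMM rescaling (0.0777) and not made in the authors' deposited table (adjusted p = 0.167). Npm1 has processed pseudogenes, so the assignment of its reads is uncertain. Ncl, nucleolin, which binds nascent ribosomal RNA, had 1507, 1541, 1494 and 1564 TPM in AOAH 1 to 4, 1199, 1201 and 1172 TPM in PC 1 to 3, and 1377, 1326, 1368 and 1289 TPM in vehicle 1 to 4. No groups overlapped. Ncl rose with AOAH by 0.19 ± 0.03 (SE, limma adjusted p = 0.000988) and its log2 change with PC was -0.19 ± 0.02 (SE, limma adjusted p = 0.00251). Nolc1, a chaperone of snoRNPs, was picked out after its values were seen, because its change with AOAH was the largest of the 39 genes. It had 322, 335, 340 and 344 TPM in AOAH 1 to 4, 245, 252 and 250 TPM in PC 1 to 3, and 294, 266, 295 and 261 TPM in vehicle 1 to 4. AOAH libraries were all above vehicle (log2 change 0.26 ± 0.04, SE, limma adjusted p = 0.00291), PC libraries were all below it (-0.19 ± 0.04, adjusted p = 0.0232), and vehicle 1 and 3 lay above vehicle 2 and 4. The PC call of Nolc1 did not hold with batch as a block (0.0513) or without PC 1, PC 2, PC 3, vehicle 1 or vehicle 3 (0.0575 to 0.0772). Ddx21, an RNA helicase of ribosomal RNA synthesis, Mybbp1a, a nucleolar regulator, and Gnl3, the GTPase nucleostemin, rose with AOAH by 0.17 to 0.19 and did not pass the threshold with PC (-0.08 to -0.07), although Ddx21 passed it without vehicle 2 (adjusted p = 0.0283).

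All 3 core proteins of the box C/D snoRNPs, which guide ribose methylation, rose with AOAH, and 1 of 3 fell with PC. Over all genes tested, 13.1% rose with AOAH and 11.2% fell with PC. Fbl, fibrillarin, the methyltransferase itself, had 866, 874, 870 and 886 TPM in AOAH 1 to 4, against 809, 817, 818 and 826 TPM in vehicle 1 to 4. The groups did not overlap and the log2 change was 0.10 ± 0.02 (SE, limma adjusted p = 0.00301), a call lost under quantile normalization (adjusted p = 0.510) and missed in the authors' deposited table (adjusted p = 0.0546). In PC 1 to 3 Fbl had 813, 797 and 722 TPM, overlapping vehicle 1 to 3 (-0.07 ± 0.04, SE, limma adjusted p = 0.322). Nop56, a scaffold of the particle, had 685, 697, 677 and 687 TPM in AOAH 1 to 4, 552, 590.2 and 592 TPM in PC 1 to 3, and 626, 606, 610.2 and 621 TPM in vehicle 1 to 4. It had the lowest p of the 39 genes with AOAH (log2 change 0.16 ± 0.02, SE, limma adjusted p = 0.000499), and with PC all libraries were lower but the change of -0.09 ± 0.03 did not pass (adjusted p = 0.110). Its partner Nop58 had 482, 516, 476 and 513 TPM in AOAH 1 to 4, 411, 417 and 408 TPM in PC 1 to 3, and 442, 446, 429 and 428 TPM in vehicle 1 to 4, with no overlap between groups. Nop58 rose with AOAH (0.19 ± 0.03, SE, limma adjusted p = 0.00302) and fell with PC (-0.09 ± 0.02, SE, limma adjusted p = 0.0397). The PC call did not hold with batch as a block (0.0597) or without PC 1, PC 2, PC 3, vehicle 1 or vehicle 2 (0.0717 to 0.119).

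In the box H/ACA snoRNPs, which guide pseudouridylation, 3 of 4 core proteins rose with AOAH and 1 of 4 fell with PC. Dkc1, dyskerin, the pseudouridine synthase, had 426, 403, 434 and 437 TPM in AOAH 1 to 4, 359, 327 and 353 TPM in PC 1 to 3, and 384, 369, 387 and 358 TPM in vehicle 1 to 4. It rose with AOAH (log2 change 0.18 ± 0.03, SE, limma adjusted p = 0.00464), while with PC the change was -0.13 ± 0.04 (adjusted p = 0.0602, and 0.0355 with batch as a block). Gar1 had 405, 408, 407 and 415 TPM in AOAH 1 to 4, 352, 328 and 306 TPM in PC 1 to 3, and 373, 353, 367 and 365 TPM in vehicle 1 to 4. AOAH libraries of Gar1 were tightly grouped above vehicle (0.16 ± 0.02, SE, limma adjusted p = 0.000834) and PC libraries were spread below it (-0.15 ± 0.05, adjusted p = 0.0910, and 0.0307 without PC 1). Nhp2 had 596, 593, 585 and 592 TPM in AOAH 1 to 4, 530.1, 523 and 528 TPM in PC 1 to 3, and 525, 534, 532 and 548 TPM in vehicle 1 to 4. It rose with AOAH (0.15 ± 0.02, SE, limma adjusted p = 0.000817), lost under quantile normalization (0.0747), and PC and vehicle 1 to 3 overlapped (-0.01 ± 0.02, adjusted p = 0.80). Nop10, the smallest core protein, had 221, 208, 207 and 216 TPM in AOAH 1 to 4, overlapping the 200.4, 207, 195 and 200.3 TPM in vehicle 1 to 4 (0.08 ± 0.03, adjusted p = 0.0701). In PC 1 to 3 it had 183, 183 and 184 TPM, below all vehicle libraries (-0.13 ± 0.03, SE, limma adjusted p = 0.0237), a call that did not hold with batch as a block (0.0555) or without PC 1, PC 2, PC 3 or vehicle 1 (0.0657 to 0.0699). Among 10 factors that assemble snoRNPs, 6 rose and 0 fell with AOAH, led by Ruvbl2, an ATPase of the assembly chaperone (0.23 ± 0.02, adjusted p = 0.000284), and Shq1, a chaperone of dyskerin (0.28 ± 0.04, adjusted p = 0.00121). With PC 1 of these rose, Pih1d1, and 1 fell, Znhit3 (-0.25 ± 0.05, adjusted p = 0.0143). Of all genes tested, 13.1% rose and 12.1% fell with AOAH, and 8.27% rose and 11.2% fell with PC. The Pih1d1 call was lost without PC 1, PC 2, PC 3, vehicle 2 or vehicle 3, with adjusted p up to 0.438 under the alternatives, and the Znhit3 call without vehicle 1 (0.0561).

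Assembly factors of the small subunit rose in 7 of 11 cases with AOAH, where 13.1% of all genes tested rose. With PC 0 of 11 passed the threshold in either direction, where 19.5% of all genes tested did. Nop14, an early factor, had 95.2, 97.0, 91.4 and 95.8 TPM in AOAH 1 to 4, against 82.8, 84.7, 82.7 and 78.4 TPM in vehicle 1 to 4 (log2 change 0.21 ± 0.03, SE, limma adjusted p = 0.00241). In PC 1 to 3 Nop14 had 79.6, 80.7 and 78.7 TPM, below vehicle 1 to 3 (-0.06 ± 0.03, SE, limma adjusted p = 0.189). Bysl, bystin, had 50.7, 52.4, 53.6 and 51.6 TPM in AOAH 1 to 4, 48.3, 47.7 and 49.5 TPM in PC 1 to 3, and 47.4, 45.8, 47.0 and 46.2 TPM in vehicle 1 to 4. Both treated groups of Bysl lay above vehicle without overlap, AOAH past the threshold (0.16 ± 0.03, SE, limma adjusted p = 0.00704) and PC not (0.05 ± 0.04, adjusted p = 0.388). Tsr1, a GTPase-like factor of late maturation, had 108, 109, 111 and 110 TPM in AOAH 1 to 4, 96.0, 96.8 and 97.3 TPM in PC 1 to 3, and 105, 100.5, 105 and 100.3 TPM in vehicle 1 to 4. Its 3 groups did not overlap. Tsr1 rose with AOAH (0.09 ± 0.03, SE, limma adjusted p = 0.0290), a call that did not hold with batch as a block (0.0722) or without AOAH 2, AOAH 3, AOAH 4, vehicle 2 or vehicle 4 (0.0556 to 0.0789), and its change with PC was -0.09 ± 0.03 (adjusted p = 0.0752, and 0.0464 without vehicle 2). Utp20, a large scaffold protein, had 45.7, 38.7, 42.2 and 40.5 TPM in AOAH 1 to 4, 37.1, 36.0 and 35.3 TPM in PC 1 to 3, and 42.9, 37.5, 41.6 and 37.5 TPM in vehicle 1 to 4. AOAH and vehicle overlapped for Utp20, while all PC libraries were below vehicle, short of the threshold (-0.16 ± 0.06, adjusted p = 0.0924, and 0.0244 without vehicle 2). Rrp9, which binds the small nucleolar RNA of the early processing complex, had 200.3, 215, 214 and 218 TPM in AOAH 1 to 4, 205, 206 and 209 TPM in PC 1 to 3, and 199, 205, 201 and 201 TPM in vehicle 1 to 4, and passed the threshold with AOAH only without AOAH 1 (adjusted p = 0.0179). The other genes that rose with AOAH were Wdr43, Wdr75, Rrp12 and Ltv1, by 0.16 to 0.22. Wdr75 was not called with batch as a block (0.0878) or without AOAH 1, AOAH 3, AOAH 4, vehicle 2, vehicle 3 or vehicle 4 (0.0524 to 0.0893), and Rrp12 (0.050) and Ltv1 (0.0517) were not called with batch as a block. Nob1, the endonuclease that makes the final cut, stood at 120 to 131 TPM with AOAH and 111 to 120.3 TPM with vehicle (0.12 ± 0.04, adjusted p = 0.0523, 0.0322 without AOAH 3 and 0.0263 with batch as a block). Heatr1 was the most variable with AOAH, at 74.0, 92.4, 70.8 and 82.7 TPM, and overlapped vehicle (67.1 to 73.9 TPM).

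Assembly factors of the large subunit rose in 8 of 10 cases with AOAH, where 13.1% of all genes tested rose. With PC 0 of 10 passed the threshold in either direction, where 19.5% of all genes tested did. Nop2, a methyltransferase of ribosomal RNA whose promoter is printed above, had 188, 184, 188 and 192 TPM in AOAH 1 to 4, 162, 155 and 159 TPM in PC 1 to 3, and 166, 171, 169 and 169 TPM in vehicle 1 to 4. No groups of Nop2 overlapped. It rose with AOAH (log2 change 0.15 ± 0.02, SE, limma adjusted p = 0.00122) and its change with PC was -0.09 ± 0.03 (adjusted p = 0.0738). That PC change passed in a joint fit of the 11 libraries (0.0367) and with vehicle 4 included (0.0383). Rrp1b, a nucleolar processing factor, had 86.8, 84.0, 88.6 and 89.1 TPM in AOAH 1 to 4, against 80.5, 78.2, 77.1 and 75.3 TPM in vehicle 1 to 4 (0.16 ± 0.03, SE, limma adjusted p = 0.00664). In PC 1 to 3 Rrp1b had 75.4, 72.7 and 75.3 TPM, below vehicle 1 to 3 (-0.08 ± 0.03, SE, limma adjusted p = 0.175). Ftsj3, a methyltransferase-like processing factor, had 163, 167, 167 and 173 TPM in AOAH 1 to 4, 143, 146 and 145 TPM in PC 1 to 3, and 154, 152, 156 and 149.8 TPM in vehicle 1 to 4. It rose with AOAH (0.13 ± 0.03, SE, limma adjusted p = 0.00706), and with PC all libraries were lower at -0.09 ± 0.03 (adjusted p = 0.0598). The PC change of Ftsj3 passed in the joint fit of the 11 libraries (0.0471) and with array weights (0.0414). Ebna1bp2, the most abundant of these 10, had 301, 293, 302 and 312 TPM in AOAH 1 to 4. It had 293, 285 and 296 TPM in PC 1 to 3, and 287, 259, 261 and 262 TPM in vehicle 1 to 4. Vehicle 1 stood apart from the other vehicle libraries and reached into the PC range. AOAH against vehicle passed the threshold (0.18 ± 0.04, SE, limma adjusted p = 0.00759) and PC did not (0.12 ± 0.04, adjusted p = 0.105). Wdr12, Bop1 and Pes1 form a complex with one another: Wdr12 rose by 0.20 and Bop1 by 0.12 with AOAH, the Bop1 call being lost under quantile normalization (0.0852), while Pes1 had 238, 231, 215 and 276 TPM in AOAH 1 to 4, against 204, 213, 221 and 223 TPM in vehicle 1 to 4, and did not pass (adjusted p = 0.149). AOAH 4 is the high library for Pes1. Rrs1 (0.12) and Nip7 (0.10) rose with AOAH although their groups overlapped. Rrs1 lost its call without AOAH 2, AOAH 3, AOAH 4, vehicle 1, vehicle 2 or vehicle 4 (0.0551 to 0.102), and Nip7 with the batch block (0.0606) or without AOAH 1, AOAH 3, AOAH 4, vehicle 1, vehicle 2 or vehicle 3 (0.0700 to 0.110). Nop16 did not pass with AOAH (195 to 222 TPM, against 194 to 206 TPM in vehicle) and did so without AOAH 1 (0.0399).

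The authors' deposited tables, made from counts of the same libraries, call 26 of the 39 genes higher and 0 lower with AOAH, where 8.45% of their 12492 genes with an adjusted p were higher and 8.68% lower. With PC those authors' deposited tables have no gene of the 39 higher and 3 lower, Polr1a, Ncl and Nolc1, where 5.74% of their 11109 genes were higher and 7.65% lower. Of the AOAH calls 23 were made in both sets, and the 3 PC calls of the authors' deposited table were among the 7 made here. Their median log2 fold change over the 39 genes was 0.16 for AOAH and -0.06 for PC in the authors' deposited tables. With AOAH, Polr1a, Heatr1 and Pes1 were called only there (authors' adjusted p = 0.0108, 0.0159 and 0.0447). Fbl, Tsr1, Bop1, Rrs1 and Nip7 were called only here (authors' adjusted p = 0.0546, 0.125, 0.0527, 0.0632 and 0.205).

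Of 44 other assembly factors of the small subunit, 19 rose and 1 fell (Trmt112, log2 change -0.18) with AOAH, with a median log2 change of 0.11. With PC 1 rose (Emg1, a call lost with any 1 library left out, 0.0576 to 0.142) and 8 fell, with a median of -0.03. The count that rose with AOAH was 10 without AOAH 2, 7 without AOAH 4, 7 without vehicle 2, 11 without vehicle 4 and 8 with batch as a block. The count that fell with PC was 0 without vehicle 1, 1 without PC 1 or vehicle 3, 3 without PC 3, 4 without PC 2 or vehicle 2, and 1 with batch as a block. Utp4, a processome subunit (0.23 ± 0.05, SE, limma adjusted p = 0.00647), and Nop9, an RNA-binding assembly factor (0.17 ± 0.03, SE, limma adjusted p = 0.00697), had the lowest p with AOAH, and Nol11 with PC (-0.24 ± 0.05, SE, limma adjusted p = 0.0142, and 0.0549 without vehicle 1). Of 46 other factors of the large subunit, 21 rose and 1 fell (Nop53, -0.23, a call lost without AOAH 4 or vehicle 4, 0.0558 and 0.0536) with AOAH, with a median of 0.11, and 1 rose (Nsa2, a call lost with any library but vehicle 2 left out, 0.0879 to 0.117) and 6 fell with PC, with a median of -0.05. There the AOAH count was 10 without AOAH 4 and 12 without vehicle 2, and the PC count was 2 without PC 1, PC 2 or PC 3, 1 without vehicle 1 or vehicle 3, and 3 with batch as a block. Rsl1d1, a nucleolar protein, rose with AOAH (0.19 ± 0.03, SE, limma adjusted p = 0.00144). For both lists the shares over all genes tested were 13.1% up and 12.1% down with AOAH, and 8.27% up and 11.2% down with PC.

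Of 30 known MYC targets outside the nucleolus, 29 were tested, and 22 rose and 0 fell with AOAH, with a median log2 change of 0.16. With PC 1 rose and 14 fell, with a median of -0.10. Of all genes tested, 13.1% rose and 12.1% fell with AOAH, and 8.27% rose and 11.2% fell with PC. Ldha, lactate dehydrogenase, had 2255, 2210.4, 2230.4 and 2248 TPM in AOAH 1 to 4, 1670.0, 1614 and 1670 TPM in PC 1 to 3, and 1769, 1732, 1786 and 1717 TPM in vehicle 1 to 4. All 4 AOAH libraries were above vehicle (0.35 ± 0.02, SE, limma adjusted p = 1.00e-05), and PC libraries were below it (-0.09 ± 0.02, adjusted p = 0.0270, a call lost without PC 1, PC 2, PC 3, vehicle 1 or vehicle 3, 0.0550 to 0.0910). Odc1, the entry enzyme of polyamine synthesis, rose with AOAH (0.27 ± 0.03, SE, limma adjusted p = 0.000190) and stood at 499 to 509 TPM with PC against 469 to 492 TPM in vehicle (adjusted p = 0.128). Ptma, prothymosin alpha, rose with AOAH (0.10 ± 0.01, adjusted p = 0.000690) and fell with PC (-0.19 ± 0.02, adjusted p = 0.00110). Set (-0.20) and Paics (-0.31), a purine synthesis enzyme, fell with PC too. Slc3a2, a chain of amino acid transporters, was the 1 gene of the list that rose with PC (0.25 ± 0.03, SE, limma adjusted p = 0.00205), while its change with AOAH was 0.02 ± 0.03.

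Among the genes of the ribosomal proteins themselves, 0 of 79 rose with AOAH, 37 fell and 42 did not pass the threshold, with a median log2 change of -0.07, and with PC 16 rose and 1 fell (Rpl22, a call lost with any library but PC 2 left out, 0.0692 to 0.127), with a median of 0.04. In the direct comparison 0 were higher and 58 lower with AOAH than with PC, and under quantile normalization 3 were higher and 32 lower. Of all genes tested 12.1% fell with AOAH, 8.27% rose with PC and 21.5% were lower with AOAH than with PC. These genes took up 26.1% to 26.6% of the TPM with AOAH, 28.4% with PC and 27.1% to 28.2% with vehicle, with 27.2%, 28.2%, 27.1% and 28.2% in vehicle 1 to 4. Rps27 had 6096, 6111, 5759 and 5610 TPM in AOAH 1 to 4, against 6957, 7281, 6918 and 7570.5 TPM in vehicle 1 to 4 (log2 change -0.29 ± 0.04, SE, limma adjusted p = 0.000824). Fau, which encodes a ribosomal protein fused to a ubiquitin-like one, had 3180, 3240 and 3286 TPM in PC 1 to 3, against 2828, 2921 and 2819 TPM in vehicle 1 to 3 (0.18 ± 0.02, SE, limma adjusted p = 0.00253). The count that fell with AOAH was 12 under TMM rescaling, 20 under quantile normalization, and 23 without AOAH 3, AOAH 4, vehicle 2 or vehicle 4. The count that rose with PC was 8 under TMM rescaling, 7 without PC 1, PC 2 or PC 3, 4 without vehicle 1 or vehicle 3, and 26 without vehicle 2. The median kept its sign under the 3 other scalings, at -0.10 to -0.03 with AOAH and 0.01 to 0.06 with PC. Ribosomal protein genes have many processed pseudogenes, so the assignment of their reads is uncertain.

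**Figure D5:**
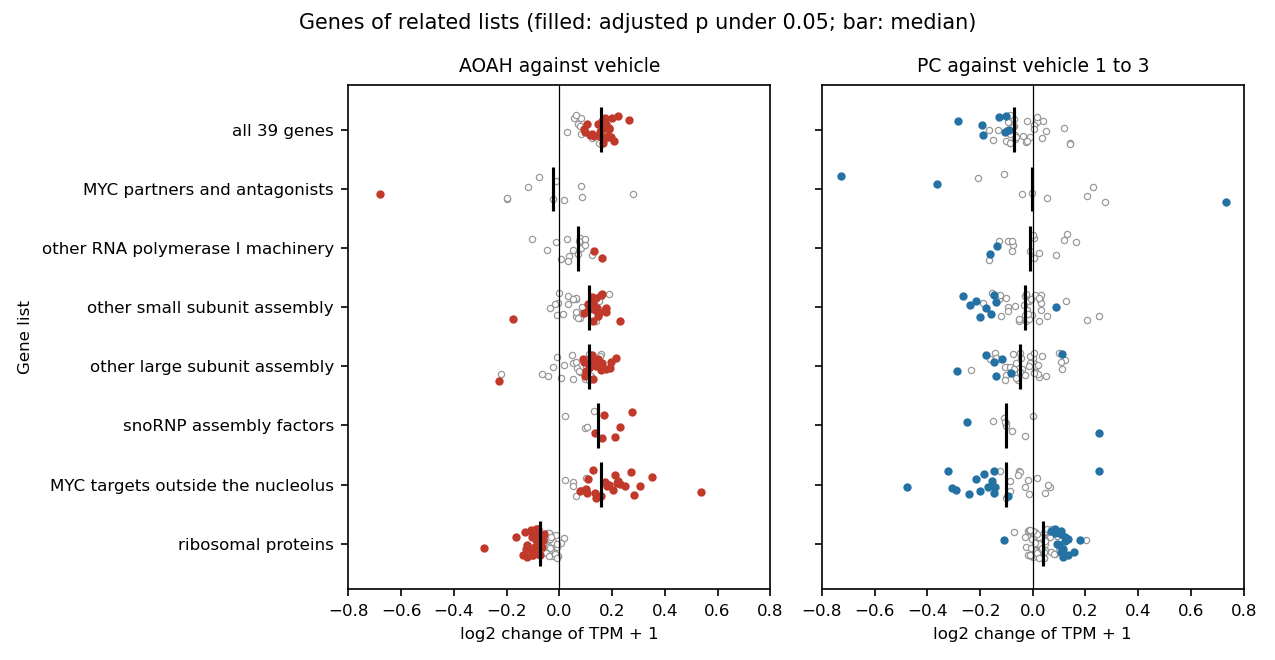
Change on the log2(TPM + 1) scale of single genes (points, filled where the adjusted p was under 0.05) in the 39 genes and 7 related lists, for AOAH against vehicle and PC against vehicle 1 to 3, with the median of each list (bar). Medians of the RNA polymerase I, assembly and target lists lie between 0.07 and 0.16 with AOAH. That of the MYC partners and antagonists lies at -0.02 and that of the ribosomal proteins at -0.07.

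Other measured features moved with these groups. Of 4 natural killer cell markers only Eomes, which activated CD8+ T cells also express, passed the filter on low values, and it fell with each treatment. The other markers, Ncr1, Klrb1c and Klra8, stood at no more than 0.58 TPM in any library, and the list had summed levels of 81.2 to 87.7 TPM with AOAH, 78.9 to 84.4 TPM with PC and 97.1 to 102 TPM with vehicle. The summed level of 9 division markers was 2190 to 2224 TPM with AOAH, 1255 to 1362 TPM with PC and 1715 to 1920.0 TPM with vehicle, with 1904, 1742, 1920.0 and 1715 TPM in vehicle 1 to 4. Of these 9 genes, 8 rose and 0 fell with AOAH, with a median log2 change of 0.36, and 0 rose and 9 fell with PC, with a median of -1.04. Of 6 T cell genes (Cd8a, Cd8b1, Cd3d, Cd3e, Cd3g and Trac of the T cell receptor), 0 rose and 4 fell with AOAH, and 6 rose with PC. Their summed levels were 1446 to 1475 TPM, 1869 to 1925 TPM and 1610 to 1658 TPM in AOAH, PC and vehicle libraries. Over all genes tested the shares were 13.1% up and 12.1% down with AOAH, and 8.27% up and 11.2% down with PC. The nuclear RNAs Malat1 and Neat1, often read as signs of RNA or nuclear content, had summed levels of 112 to 156 TPM with AOAH, 301 to 391.8 TPM with PC and 231 to 235 TPM with vehicle. The part of any of these features in the changes of the 39 genes was not tested.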

How the data were processed

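RNA was measured in 11 libraries of activated CD8+ T cells. Per the submitters' processing notes, RSEM, DESeq2 and the build mm39 were used; for the aligner, the annotation, tool versions and any use of the libraries' molecular identifiers, the detail is not given in the sources used here. The authors deposited log2 values of TPM plus 1 for 25562 gene symbols; back-transformed, 99.9% are whole multiples of 0.01 TPM within 1e-04 TPM. In the differential tables the authors deposited from DESeq2, each gene has a mean signal of size-factor-scaled counts, a log2 fold change and its error, and a Wald score. A p-value, raw and adjusted, stands beside these in the authors' files. Mouse Ensembl IDs were matched to symbols for all 39 genes. The deposited repertoire table was not used here. TPM keeps no depth, so no interval or limit from counts is given.

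All tests used limma 3.58.1 (R 4.3.3) on log2(TPM + 1), with trend and robust variance, two-sided, on genes whose TPM averaged 1 or more across the compared libraries, with Benjamini-Hochberg adjustment over all genes tested. On this scale the change of low genes is understated. Python 3.11.15 with pandas 2.3.3 and matplotlib 3.10.9 was used for summaries and figures. The fit was tested on simulated data. AOAH and PC share vehicle 1 to 3 as controls, so their calls are not independent of each other.

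Levels in every library are given for Myc and, in each role group, for the gene of highest mean TPM and the 2 of lowest p with AOAH and with PC; from related lists, up to 4 called genes of lowest p could be named. A few genes moving against their list were named after their values were seen. The members and lists were chosen with earlier results of these data known.

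The labels give batches, from which the pairing was taken. Deviations from the group means correlated at -0.0033 on average in 10 same-batch pairs of libraries (-0.0794 to 0.118) and at 0.0011 in 30 others (-0.125 to 0.140). Further settings were tried: a pseudocount of 0.1 or 5, a low-value filter of 5 TPM or none, a joint fit of the 11 libraries, a replicate block by batch, rescaling by TMM factors, quantile normalization, rescaling on TPM outside the mitochondrial, receptor segment, histone and ribosomal protein genes, array weights, adding vehicle 4 for PC, and omission of each library.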

Additional observations from a re-analysis of the deposited data

Results flagged for a closer look

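In groups of 4 libraries, 80 sets of values were checked for a library far from the other 3, and 2 were found, where chance flags about 1 in 20. Polr1e stood at 51.88 TPM in vehicle 3, against 58.17 to 58.32 TPM in the other vehicle libraries, a gap of 0.977 of the whole range. Ebna1bp2 stood at 286.71 TPM in vehicle 1, against 258.57 to 261.86 TPM in the others, a gap of 0.883 of the range. Neither value changed a call with AOAH when its library was left out. With PC, Ebna1bp2 was past the threshold as higher without vehicle 1 (limma adjusted p = 0.0238).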

How the results depend on the processing

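With AOAH against vehicle, the count of members that rose was 21 to 30 under 18 alternatives (24 with batch as a replicate block, 24 to 28 with 1 library left out) and 0 fell. Calls of 19 of the 28 held in every one. The median log2 change was 0.12 under quantile normalization and 0.13 when rescaled without mitochondrial, receptor segment, histone and ribosomal protein genes, and 0.15 to 0.17 with 1 library left out. Polr1c turned to -0.0078 under quantile normalization. With PC, 7 members fell in the comparison as reported, 3 with no filter and 8 with a filter of 5 TPM. The count was 11 in a joint fit of the 11 libraries, 4 with the replicate block and 3 under TMM rescaling. It was 6 under quantile normalization, 4 when rescaled, 12 with array weights and 9 with vehicle 4 included. With 1 library left out it was 3 to 8, and over all settings 0 to 1 rose. The PC median was -0.0555 under TMM rescaling, -0.0564 under quantile normalization, -0.0532 when rescaled and -0.0831 to -0.0638 with 1 library left out. Some genes near 0 with PC, none of them called, changed sign: Nhp2 (0.0070 under TMM rescaling, 0.0093 when rescaled), Wdr43 (0.0126 under quantile normalization, 0.0042 with vehicle 4), Rrs1 (-0.0057) and Nip7 (-0.0011) with array weights, and Wdr75 (0.0046), Pes1 (-0.0021) and Nip7 (-0.0193) with vehicle 4. Over single libraries left out, the ranges that crossed 0 were -0.0577 to 0.0046 for Wdr43, -0.0224 to 0.0381 for Rrs1, -0.0162 to 0.0222 for Nip7, -0.0824 to 0.0296 for Wdr75, -0.0067 to 0.0346 for Bop1, -0.0134 to 0.0420 for Pes1 and -0.0812 to 0.0017 for Polr1e. For AOAH against PC, 23 to 31 members were higher, and the 1 lower (Polr1c) became 0 with no filter, in 1 fit, with the replicate block, under TMM rescaling and, with 1 library left out, 0 to 1. That median was 0.145 under quantile normalization and 0.165 when rescaled, Rrp9 turned to -0.0488 and -0.0060, and Ebna1bp2 to -0.0312 under quantile normalization. The causes of these shifts were not tested. No scaling moved the median of all genes by over 0.1 (log2). Depth is unknown, so small changes were judged against the spread between 3 or 4 libraries only.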
